A study of Mus musculus with 6 samples.

Results

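Genes of the circadian clock were read in wounded skin of diabetic mice, namely Per1, Per2, Per3, Cry1, Cry2, Clock, Dbp, Tef, Nr1d1 and Nr1d2. They were taken by gene symbol, and all 10 have a row among the 16131 rows of the deposited table. RNA came from C57BL/6 skin on day 7 of wound healing, in animals whose diabetes was induced by streptozotocin (STZ), which kills pancreatic beta cells. The 3 libraries of the control group came from skin given phosphate-buffered saline (PBS) at 10 µl per day. The 3 libraries of the treated group came from skin given recombinant fibroblast growth factor 4 (rFGF4) at 100 ng/ml, also 10 µl per day. Both groups carried the same diabetes and the same wound, so no unwounded or non-diabetic skin stands beside them. The labels give no time of day for any sample. They also do not tie replicates to separate mice, so the p-values reflect only how far these libraries scatter, and that scatter may be technical.

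The clock of mammalian cells is a feedback loop of transcription. CLOCK, or its relative NPAS2, pairs with BMAL1, the product of Arntl, and the pair binds E-boxes to switch on the Per and Cry genes, whose proteins return to the nucleus and block the pair. The same E-boxes drive Nr1d1 and Nr1d2, which encode the repressors REV-ERB alpha and beta, and Dbp and Tef, which encode PAR bZIP activators of D-boxes. REV-ERB proteins and the ROR receptors compete on RORE elements that control Arntl, Npas2, Clock and Cry1. In peripheral tissues of mice Nr1d1 and Dbp RNA peaks during the day, the Per genes follow towards dusk, and Arntl and Npas2 RNA is high around the end of the night. In skin the clock is known to time cell division and hair follicle growth, and Per1 is also induced directly by glucocorticoids.

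Promoter sequences of the loop are shown first, because E-boxes, D-boxes and ROREs are the elements that tie the genes of the loop together. Windows around the start sites of RefSeq genes on GRCm38.p6 were searched on both strands for the E-box CACGTG, the D-box TTANGTAA and the RORE core TAGGTCA. Windows were found for 9 members, all but Per2. CACGTG was present in 3 of the 9 (Per1, Cry1 and Tef) and in 8.09% of all genes with a window. TTANGTAA was present in Per3 alone among members and in 2.72% of all genes, and TAGGTCA in no member and in 2.97% of all genes. Among the other core clock genes CACGTG was found in Ciart and Bhlhe41, TAGGTCA in Arntl and Nfil3, and TTANGTAA in Rorb. The matches in these windows do not overlap one another, and a match describes the letters and not a bound site. The stretches that hold the matches of Per1 (chr11:69098699-69098948, plus strand), Cry1 (chr10:85185055-85185304, minus strand), Tef (chr15:81802423-81802672, plus strand) and Per3 (chr4:151044666-151044915, minus strand) end at the base before the start site. That of Arntl (chr7:113207529-113207558, plus strand) lies just downstream of one of its start sites. They read as follows from 5′ to 3′, with the E-box, D-box or RORE core in capitals:
Per1: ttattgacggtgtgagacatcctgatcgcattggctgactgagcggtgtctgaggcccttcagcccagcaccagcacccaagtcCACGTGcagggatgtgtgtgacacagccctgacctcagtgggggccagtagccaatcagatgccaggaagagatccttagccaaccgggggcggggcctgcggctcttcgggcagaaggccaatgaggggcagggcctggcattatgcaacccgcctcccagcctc
Cry1: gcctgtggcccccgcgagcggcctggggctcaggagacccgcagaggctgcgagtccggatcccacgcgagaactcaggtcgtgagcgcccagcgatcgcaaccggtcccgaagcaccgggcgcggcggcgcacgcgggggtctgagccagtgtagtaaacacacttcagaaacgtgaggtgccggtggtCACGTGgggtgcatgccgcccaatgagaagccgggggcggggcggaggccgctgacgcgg
Tef: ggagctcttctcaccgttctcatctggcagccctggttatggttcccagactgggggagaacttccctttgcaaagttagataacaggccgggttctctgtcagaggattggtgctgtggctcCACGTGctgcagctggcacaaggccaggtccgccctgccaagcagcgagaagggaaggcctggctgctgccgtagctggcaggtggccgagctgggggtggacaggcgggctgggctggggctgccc
Per3: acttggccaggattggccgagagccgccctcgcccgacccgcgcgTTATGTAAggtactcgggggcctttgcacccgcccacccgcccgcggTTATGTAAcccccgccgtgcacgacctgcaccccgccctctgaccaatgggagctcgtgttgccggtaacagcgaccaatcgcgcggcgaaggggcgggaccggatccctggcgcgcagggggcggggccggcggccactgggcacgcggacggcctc
Arntl: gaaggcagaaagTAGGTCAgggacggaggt

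Values are FPKM, fragments per kilobase of transcript scaled to the mapped fragments of the library, as deposited by the authors, so levels can be set against each other between genes. Listed values summed to 304717 to 319807 FPKM per library, and the read depth behind them is unknown. Tests were made on log2(FPKM + 0.1) with limma across 14676 rows that reached 1 FPKM in at least 3 libraries, and all 10 members were among them. Fold changes on this scale understate the change of low genes.

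Whether rFGF4-treated and PBS-treated skin differ in their clock genes was asked first. None of the 10 members passed limma at a Benjamini-Hochberg adjusted p under 0.05, against 12.1% of all rows tested (8.46% higher and 3.62% lower with rFGF4). The count of members was also 0 with quantile normalization and with median-centred libraries, against 5.1% and 5.14% of all rows. At an unadjusted p under 0.05 limma counted 1 member, Clock, against 32.1% of all rows. In the authors' deposited table the adjusted p of the members ran from 0.234 for Clock to 0.966 for Nr1d1. The log2 fold changes, rFGF4 minus PBS, ran from 0.02 for Tef to 0.55 for Clock, and all 10 were positive, as were 69.8% of all rows. Their median was 0.25 beside 0.19 for all rows. The 3 rFGF4 libraries lay above all 3 PBS libraries in 2 members, Clock and Nr1d2, where 30.9% of all rows did so, and below them in 0, where 7.36% did. Longer transcripts had higher fold changes in these libraries, with a Spearman's rho of 0.502 over 14184 genes that are no replicates of each other. With that length trend removed from each library the members' median was -0.07, 3 of 10 were positive, against 47.3% of all genes, and 0 passed limma, against 2.16%. At an unadjusted p under 0.05, 0 members remained in that setting by limma, against 16.2% of all genes.

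**Figure D1:**
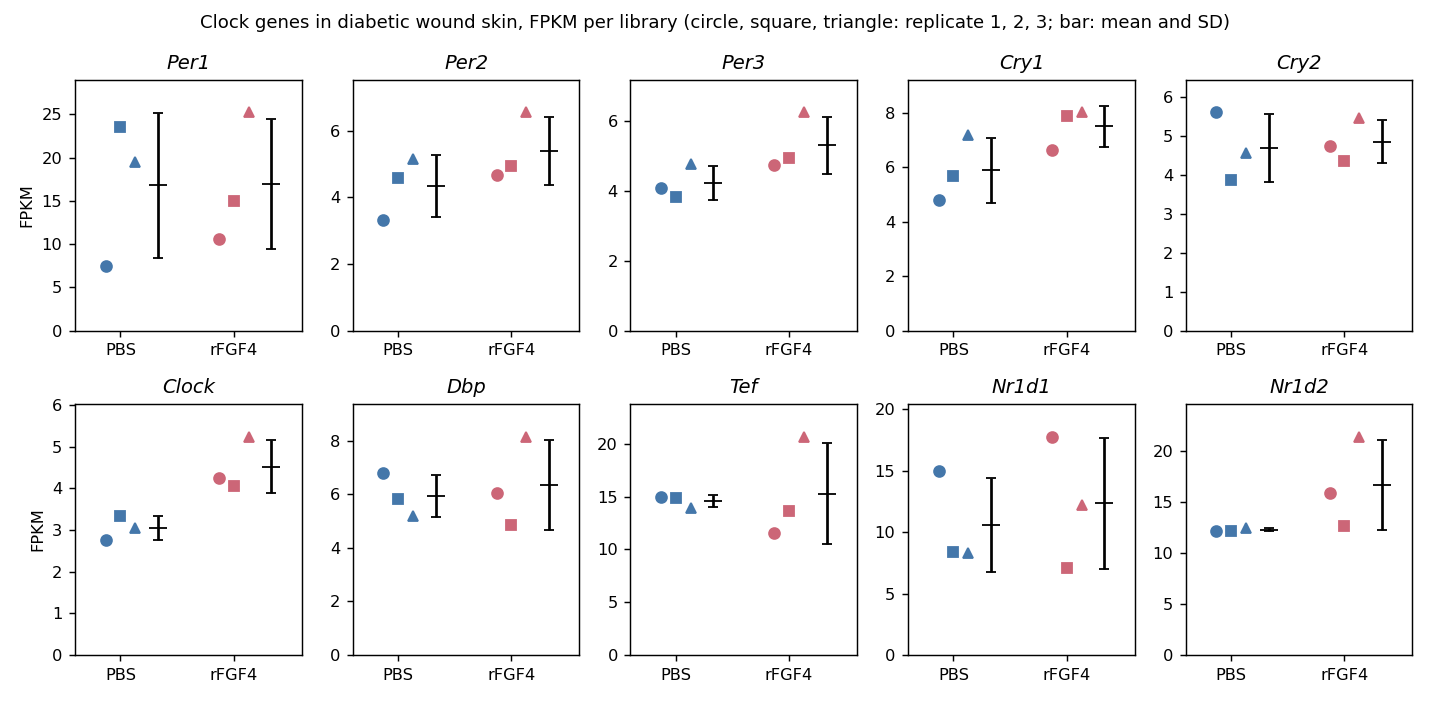
FPKM of the 10 clock genes in each library, with PBS in blue and rFGF4 in red, circles, squares and triangles for replicates 1, 2 and 3, and the mean and SD as a black bar. Only Clock and Nr1d2 have all 3 rFGF4 points above all 3 PBS points, and Per1 and Nr1d1 show the widest scatter inside the groups.

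In PBS skin Per1 had the highest level of the members at 16.8 ± 8.34 FPKM (SD, n = 3), followed by Tef at 14.6 ± 0.599, Nr1d2 at 12.3 ± 0.158 and Nr1d1 at 10.6 ± 3.84. Dbp (5.94 ± 0.793 FPKM), Cry1 (5.89 ± 1.20), Cry2 (4.69 ± 0.870), Per2 (4.34 ± 0.938) and Per3 (4.22 ± 0.481) formed a lower band. Clock was lowest at 3.04 ± 0.280 FPKM. In that order Tef lay above Nr1d2, Nr1d1 above Dbp and Per3 above Clock in every PBS library, while the PBS ranges of all other neighbours overlapped. In rFGF4 skin Per1 (16.9 ± 7.52 FPKM) and Nr1d2 (16.7 ± 4.42) stood at the top and Clock (4.52 ± 0.632) at the bottom.

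Among the repressors, Per1, whose protein blocks CLOCK and BMAL1, measured 7.44, 23.5 and 19.4 FPKM in PBS replicates 1, 2 and 3. It measured 10.5, 15.0 and 25.2 FPKM in rFGF4 replicates 1, 2 and 3. The groups overlap fully, with replicate 1 lowest in each. The group means of Per1 were almost equal (log2 fold change 0.08, SE 0.489, limma adjusted p = 0.934), with an interval at 95% from -1.09 to 1.24. Its spread within groups was larger than that of 95.9% of all rows tested. Per1 spans bases 69095217 to 69109960 of chromosome 11 (GRCm38, GENCODE M21), as a protein-coding gene on the plus strand.

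Per2, the paralogue most tied to the phase of the loop, measured 3.31, 4.57 and 5.14 FPKM in PBS replicates 1 to 3 and 4.68, 4.93 and 6.55 in rFGF4 replicates 1 to 3. Per3, the third period gene, measured 4.08, 3.83 and 4.76 FPKM in PBS and 4.74, 4.92 and 6.23 in rFGF4 replicates 1 to 3. In both genes rFGF4 replicate 3 was the highest library and the groups touched or overlapped. The log2 fold changes were 0.31 for Per2 (interval -0.19 to 0.81, limma adjusted p = 0.356) and 0.32 for Per3 (-0.06 to 0.69, limma adjusted p = 0.220). With the length trend removed both were -0.09; their transcripts have 5833 and 5999 bases. Per2 lies on chromosome 1 and Per3 on chromosome 4.

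Cry1, the cryptochrome whose RNA is late in the cycle, measured 4.81, 5.68 and 7.18 FPKM in PBS and 6.64, 7.87 and 8.01 in rFGF4 replicates 1 to 3. Only PBS replicate 3 exceeded the lowest rFGF4 library (log2 fold change 0.36, interval -0.05 to 0.77, limma adjusted p = 0.206). Cry2, the second cryptochrome, measured 5.61, 3.88 and 4.57 FPKM in PBS and 4.73, 4.37 and 5.45 in rFGF4 replicates 1 to 3. The Cry2 groups lay on top of each other, with a log2 fold change of 0.06 (interval -0.35 to 0.47, limma adjusted p = 0.846). Cry2 turned to -0.26 with the length trend removed, while Cry1 was then 0.09. Cry1 lies on chromosome 10 and Cry2 on chromosome 2.

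Clock, the activator and histone acetyltransferase that partners BMAL1, measured 2.77, 3.33 and 3.04 FPKM in PBS and 4.26, 4.05 and 5.24 in rFGF4 replicates 1 to 3. Every rFGF4 library stood above every PBS library. Clock had the smallest p of the 10 members at 1.46-fold, but did not pass (log2 fold change 0.55, SE 0.154, limma adjusted p = 0.0615). It also has the longest transcript of the 10 at 9744 bases, and its log2 fold change was 0.37 with median-centred libraries. With the length trend removed it was 0.07 (limma adjusted p = 0.854). Clock spans bases 76209868 to 76304792 of chromosome 5 on the minus strand of GRCm38.

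Of the outputs, Dbp, the PAR bZIP factor with one of the steepest daily rhythms known in mouse tissue, measured 6.78, 5.84 and 5.21 FPKM in PBS and 6.03, 4.86 and 8.15 in rFGF4 replicates 1 to 3. The highest and the lowest library were both of the rFGF4 group. Its log2 fold change was 0.07 (SE 0.209, limma adjusted p = 0.850), with an interval from -0.43 to 0.57. Tef, its relative, measured 15.0, 14.9 and 13.9 FPKM in PBS and 11.5, 13.6 and 20.7 in rFGF4 replicates 1 to 3. The PBS libraries of Tef were tight and the rFGF4 libraries lay on both sides of them (log2 fold change 0.02, interval -0.49 to 0.53, limma adjusted p = 0.956). Dbp lies on chromosome 7, from 45705088 to 45710203, and Tef on chromosome 15.

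Nr1d1, the repressor of Arntl, measured 15.0, 8.38 and 8.32 FPKM in PBS and 17.8, 7.07 and 12.2 in rFGF4 replicates 1 to 3. In both groups replicate 1 was the highest, and the group difference was small beside that scatter (log2 fold change 0.18, interval -0.71 to 1.08, limma adjusted p = 0.779). Its spread within groups exceeded that of 91.3% of all rows. Nr1d2, its paralogue, measured 12.2, 12.2 and 12.5 FPKM in PBS and 15.9, 12.7 and 21.4 in rFGF4 replicates 1 to 3. All 3 rFGF4 libraries of Nr1d2 lay above the PBS libraries, one of them barely, and it did not pass (log2 fold change 0.40, SE 0.191, limma adjusted p = 0.199). It was 0.05 with the length trend removed. Nr1d1 lies on chromosome 11, from 98767932 to 98775333, and Nr1d2 on chromosome 14.

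**Figure D2:**
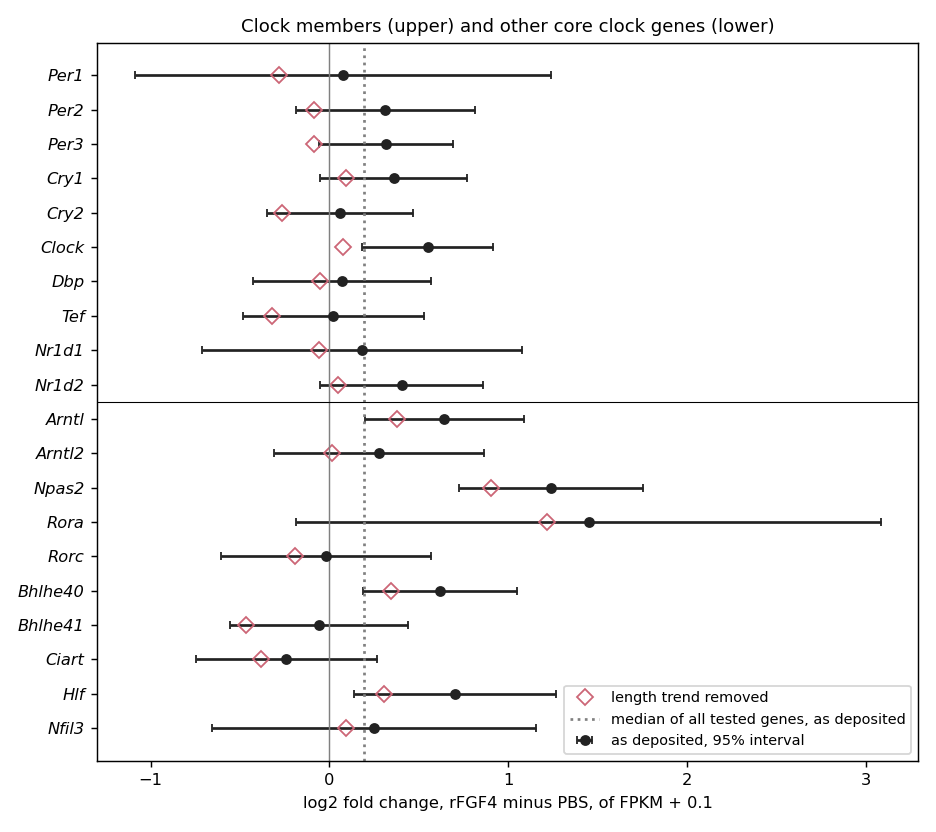
Log2 fold changes (rFGF4 minus PBS) of log2(FPKM + 0.1) for the 10 members, above the line, and 10 other core clock genes, below it; black points carry 95% intervals from limma and open diamonds give the value with the length trend removed, and the dotted line marks the median of all rows. Among members only the interval of Clock lies clear of 0, and among the others those of Arntl, Npas2, Bhlhe40 and Hlf do.

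The rest of the loop was read from a list of 11 further core clock genes, of which 10 were tested and 1 passed, higher with rFGF4, where 8.46% of all rows did. That gene was Npas2, the partner of BMAL1 that can stand in for CLOCK, at 0.708, 0.579 and 0.764 FPKM in PBS and 1.97, 1.62 and 1.65 in rFGF4 replicates 1 to 3. All rFGF4 libraries stood above all PBS libraries, and Npas2 rose 2.36-fold (log2 fold change 1.24, SE 0.218, limma adjusted p = 0.0228). In the authors' deposited table its adjusted p is 8.41e-06. With any 1 library left out Npas2 no longer passed (limma adjusted p from 0.0513 to 0.0833, log2 fold change from 1.14 to 1.31), nor did it after removal of the length trend (0.90, limma adjusted p = 0.0934). Calls over all rows also fell, from 1773 to between 156 and 890 with 1 library left out. With the length trend removed they fell to 306. The PBS libraries of Npas2 all lay under 1 FPKM, so the gene entered the test through its rFGF4 values alone. Without the filter on low values its limma adjusted p was 0.0248, and with a pseudocount of 1 its log2 fold change was 0.70.

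Arntl, the gene of BMAL1, measured 2.21, 1.71 and 1.56 FPKM in PBS and 2.84, 3.22 and 2.60 in rFGF4 replicates 1 to 3. The groups did not overlap, but Arntl did not pass (log2 fold change 0.64, SE 0.187, limma adjusted p = 0.0664). Its length-corrected value was 0.38 (limma adjusted p = 0.335). Bhlhe40, an E-box repressor also induced by growth factors and hypoxia, had a log2 fold change of 0.62 (limma adjusted p = 0.0686) and Hlf, the third PAR bZIP factor, one of 0.70 (limma adjusted p = 0.0961). Rora, a RORE activator, measured 0.419, 2.60 and 3.36 FPKM in PBS and 5.17, 3.48 and 5.11 in rFGF4 replicates 1 to 3. PBS replicate 1 decided the size of its log2 fold change, which was 1.45 with that library and 0.60 without it (limma adjusted p = 0.199 and 0.184). Nfil3, the D-box repressor, Ciart, a repressor of the CLOCK and BMAL1 pair, and Bhlhe41 had log2 fold changes of 0.25, -0.24 and -0.06 (limma adjusted p = 0.700, 0.484 and 0.878). The median of the 10 tested genes was 0.45 beside 0.19 for all rows, and 0.20 beside -0.02 with the length trend removed.

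To read phase within each library, the mean log2 level of genes whose RNA peaks in the day (Dbp, Nr1d1, Nr1d2, Tef and Per3) was set against that of genes high around the end of the night (Arntl, Npas2, Clock and Cry1). Scaling of a library cancels in this difference. It was 2.08, 1.88 and 1.79 on the log2 scale in PBS replicates 1 to 3 and 1.45, 1.10 and 1.71 in rFGF4 replicates 1 to 3. All 3 rFGF4 libraries were lower, by 0.50 on average, and the lowest PBS library and the highest rFGF4 library were close. In the values as deposited the gap came from the night-end genes, among which Npas2 had the largest log2 fold change, at 1.24. The mean log2 level of the night-end genes was 1.20 ± 0.0555 in PBS and 1.89 ± 0.0245 in rFGF4 (SD, n = 3 each). The daytime genes did not move the other way there, at 3.11 ± 0.128 in PBS and 3.31 ± 0.320 in rFGF4. Library scaling does not cancel in either mean alone. With the length trend removed, the log2 fold changes of Dbp, Nr1d1, Tef and Per3 were -0.05, -0.06, -0.32 and -0.09, and that of Nr1d2 was 0.05. Those of Arntl, Npas2, Clock and Cry1 were then 0.38, 0.90, 0.07 and 0.09. The difference was -0.30 with a pseudocount of 1. It was -0.46 with the length trend removed, where all 3 rFGF4 libraries were still lower. Without Npas2 it was -0.32 and the groups overlapped, and with only the members Clock and Cry1 on the night-end side it was -0.26, again with overlap. No test was made of these sums, since the genes were chosen with earlier results of these data known.

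Dbp and Nr1d1 were also set against Arntl singly. The log2 ratio of Dbp to Arntl was 1.58, 1.72 and 1.68 in PBS and 1.06, 0.58 and 1.61 in rFGF4 replicates 1 to 3, a lowest PBS value just under the highest rFGF4 value. The ratio of Nr1d1 to Arntl was 6.54, 4.69 and 5.07 in PBS and 6.08, 2.16 and 4.56 in rFGF4 replicates 1 to 3. In each of these rFGF4 replicate 2 was the lowest library and the groups overlapped.

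**Figure D3:**
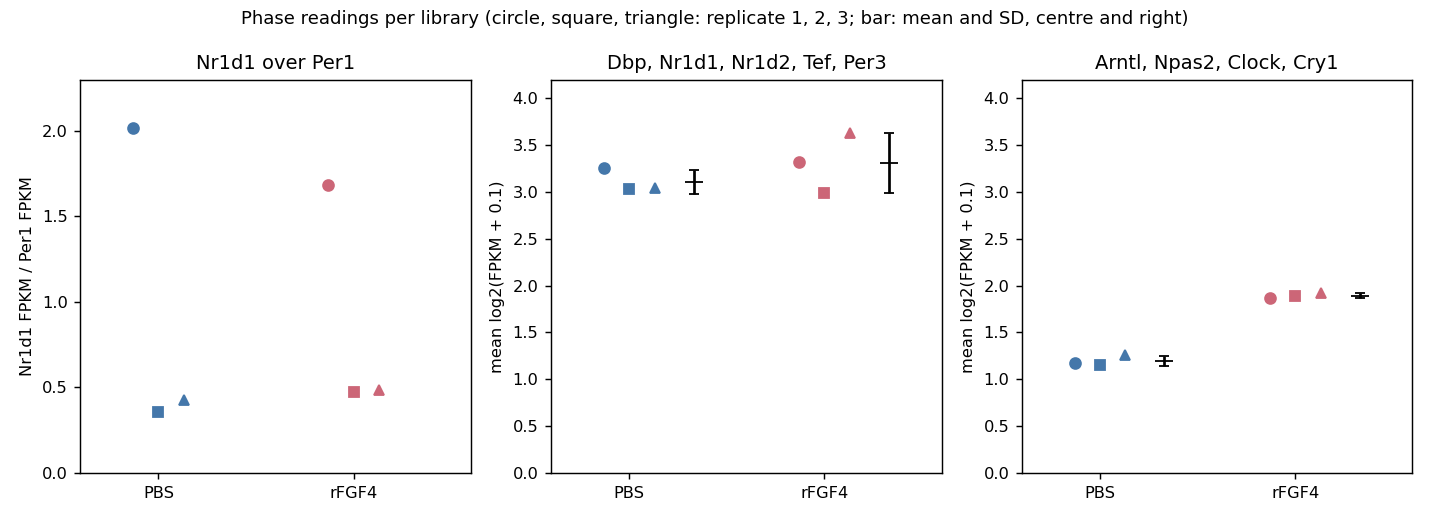
Phase readings per library, with PBS in blue, rFGF4 in red and circles, squares and triangles for replicates 1, 2 and 3: the ratio of Nr1d1 to Per1 FPKM (left), the mean log2(FPKM + 0.1) of 5 daytime genes (centre) and that of 4 night-end genes (right), with mean and SD bars in the last 2. The ratio separates replicate 1 of both groups from the other libraries, the daytime genes overlap between groups, and the night-end genes sit near 1.20 in PBS and 1.89 in rFGF4. Npas2, under 1 FPKM in all PBS libraries, is 1 of the night-end genes. Without it the groups overlap in the daytime minus night-end difference.

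Another difference ran between libraries inside each group and not between the groups. No label ties replicate 1 of PBS to replicate 1 of rFGF4. The ratio of Nr1d1 to Per1 was 2.02 in PBS replicate 1 and 1.69 in rFGF4 replicate 1, and 0.357, 0.428, 0.473 and 0.484 in the other libraries. Replicate 1 of each group thus held more Nr1d1 than Per1 RNA per length, and each other library held less. The ratio of Nr1d1 to Per2 was 4.53 and 3.80 in the replicate 1 libraries and 1.43 to 1.86 in the others. This pair of genes was picked after the values were seen, and no test was made of it. Per1, Per2 and Cry1 were lowest in replicate 1 of both groups, or 3 of 10 members, against 12.1% of all rows. So were 2 of the 10 other core clock genes, Ciart and Nfil3. The 3 members do not vary independently over the 6 libraries. Pearson's r was 0.81 for Per1 with Per2, 0.89 for Per2 with Cry1 and 0.57 for Per1 with Cry1. Highest in replicate 1 of both groups were 1 of 10 members, Nr1d1, and 3 of 10 other core clock genes, against 14.1% of all rows. Bhlhe40 and Hlf were among those 3. Nfil3 measured 8.90 FPKM in PBS replicate 1 and 15.6 in rFGF4 replicate 1, and 19.1 to 25.5 FPKM in the other libraries.

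Genes that glucocorticoid hormones induce, a list of 11 that includes Per1, were read beside this pattern, because corticosterone follows the time of day and stress. In 5 of the 11, against 12.1% of all rows, replicate 1 was the lowest library of both groups: Per1, Fkbp5, Tsc22d3, Sgk1 and Ddit4. Per1 had already set the pattern above, and Fkbp5, Tsc22d3 and Sgk1 were named after their values were seen. Replicate 1 was the highest library of both groups in 0 of the 11, against 14.1% of all rows. For Mt2 and Zbtb16 it was the highest PBS library. Tsc22d3, which encodes the glucocorticoid-induced leucine zipper protein, measured 14.8, 26.0 and 29.1 FPKM in PBS and 12.8, 22.4 and 34.5 in rFGF4 replicates 1 to 3. Both replicate 1 libraries lay below all others, as they did for Per1. The part of hormone level or of collection time in this was not tested. Between the groups 1 of the 11 passed, against 12.1% of all rows. It was Errfi1, a feedback inhibitor of the EGF receptor, which went from 16.2 ± 2.13 to 41.5 ± 14.3 FPKM (limma adjusted p = 0.0256; with the length trend removed, 0.123). Of the 6 fits with 1 library left out, which also called fewer of all rows, 2 called it. The metallothionein gene Mt2 (log2 fold change -1.64, limma adjusted p = 0.0955), Klf9 (0.45, limma adjusted p = 0.162) and Ddit4 (-0.51, limma adjusted p = 0.294) did not pass limma. All rFGF4 libraries of Mt2 lay below its PBS libraries. In the authors' deposited table the adjusted p is 0.000893 for Mt2, 0.528 for Klf9 and 0.127 for Ddit4. The median log2 fold change of the list was 0.08.

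Replicate 3 of the rFGF4 group stood apart in another way. It was the highest library of its group in 9 of 10 members, against 29.2% of all rows, and the highest of all 6 libraries in 8 of 10, against 20.9%. The same counts were 8 and 7 of the 11 glucocorticoid-responsive genes, and 3 and 1 of the 10 other core clock genes. Without it the log2 fold changes of Per1, Cry2, Dbp and Tef turned negative, at -0.26, -0.03, -0.12 and -0.22, and that of Nr1d2 was 0.21. The mean z-score of Dbp, Tef, Nr1d1, Nr1d2 and Per1 to Per3 was 1.38 in rFGF4 replicate 3 and -0.44 to -0.04 in the other libraries. The genes most like it over the 6 libraries were thus bound to be high in that library. They were Ptprn (Pearson's r 0.99), Serpine2 (0.98), Crispld2 (0.97), Fam110d (0.97) and Col18a1 (0.97), chosen from 8319 genes of at least 5 FPKM, so high values of r over 6 libraries are to be found. Crispld2 measured 46.8 FPKM in rFGF4 replicate 3 and 19.8 to 27.7 FPKM in the other libraries. Members also differed among themselves: over the 6 libraries, which share 2 groups, Pearson's r was 0.81 for Per1 with Per2 and 0.72 for Dbp with Tef, but -0.59 for Per1 with Nr1d1.

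**Figure D4:**
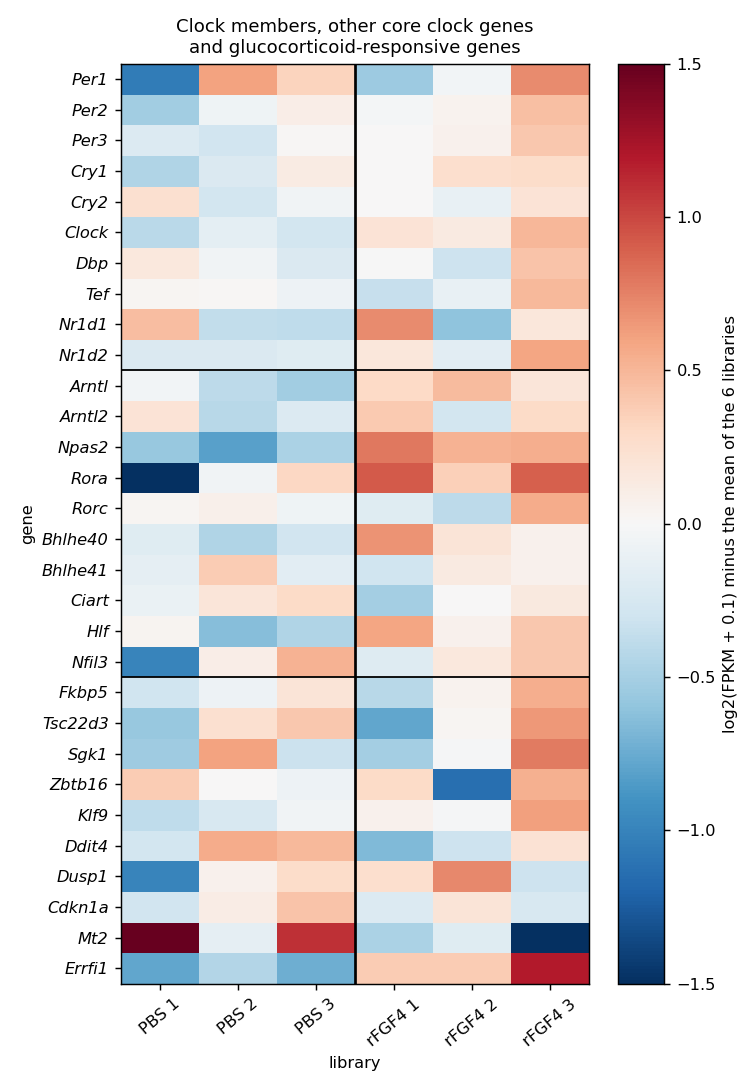
Deviation of log2(FPKM + 0.1) from the mean of the 6 libraries for the 10 members (top), 10 other core clock genes (middle) and 10 further glucocorticoid-responsive genes (bottom), in PBS libraries left of the line and rFGF4 libraries right of it; colours saturate at the ends of the scale. Per1, Nfil3 and Tsc22d3 are low in replicate 1 of both groups while Nr1d1 is high there, and Npas2 and Arntl are higher in all rFGF4 libraries.

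Kinases, ubiquitin ligases and other proteins that act on clock proteins were read from a list of 12, of which 10 were tested and 2 rose, against 8.46% of all rows tested. Csnk1a1, casein kinase 1 alpha, went from 27.8 ± 1.75 to 37.7 ± 1.53 FPKM (limma adjusted p = 0.0464) and Gsk3b, glycogen synthase kinase 3 beta, from 5.33 ± 0.260 to 7.96 ± 1.05 FPKM (limma adjusted p = 0.0412). Neither passed when any 1 library was left out, where calls over all rows fell as well. Both were near 0.11 on the log2 scale with the length trend removed. The ubiquitin ligase gene Huwe1 had a log2 fold change of 0.46 (limma adjusted p = 0.0628). The kinases most tied to period length, Csnk1d and Csnk1e, were at 0.05 and 0.18. The median of the list was 0.32, and -0.06 with the length trend removed.

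Of 11 further genes with daily rhythms in many tissues, 10 were tested and 1 rose, against 8.46% of all rows. That gene, Marveld1, went from 16.2 ± 1.27 to 22.1 ± 0.698 FPKM (limma adjusted p = 0.0450; with the length trend removed, 0.421). With any 1 library left out it no longer passed, and calls over all rows also fell. Wee1, the cell cycle kinase driven by E-boxes, had a log2 fold change of 0.74 (limma adjusted p = 0.0541) and passed without rFGF4 replicate 1 (limma adjusted p = 0.0405). Cys1 and Leo1 had log2 fold changes of 0.64 and 0.21 (limma adjusted p = 0.230 and 0.467). Usp2, among the steadiest clock outputs across tissues, differed by 0.14, and the median of the list was 0.20, close to that of all rows.

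Whole skin mixes cell types, and fewer cells of a type cannot be told apart from less RNA per cell. All 10 keratinocyte markers had a row, with summed levels of 2909 to 10185 FPKM in PBS and 3621 to 5298 in rFGF4. Of these 0 passed limma, against 12.1% of all rows, with 0 at an unadjusted p under 0.05, against 32.1%. The 8 fibroblast markers summed to 2778 to 3497 FPKM in PBS and 4990 to 5598 in rFGF4, and 6 rose (Pdgfra, Col1a2, Col3a1, Dcn, Lum and Fbn1), against 8.46% of all rows. Their sum was thus higher in all 3 rFGF4 libraries, as were Npas2, Arntl and Clock, and with the length trend removed 0 of the 8 passed limma, against 2.16% of all genes, with 5 at an unadjusted p under 0.05, against 16.2%. Skeletal muscle markers, 10 of 10 listed, summed to 2700 to 5790 FPKM in PBS and 1732 to 3597 in rFGF4. PBS replicate 1 was the highest. By limma 0 passed, against 12.1% of all rows, with 1 at an unadjusted p under 0.05, against 32.1%. Of their log2 fold changes 9 were negative and 1 positive. Their median was -0.46, and -0.57 with the length trend removed, beside 0.19 and -0.02 for all rows. All rFGF4 libraries of Tnnc2 lay below its PBS libraries (limma adjusted p = 0.0730). In the authors' deposited table the adjusted p is 0.00105 for Tnnc2, 0.0258 for Mylpf and above 0.05 for the others. Adipocyte markers summed to 258 to 330 FPKM in PBS and 246 to 263 in rFGF4. Of 8 tested 1 fell, Ucp1 of brown fat, against 3.62% of all rows. Of the 8 log2 fold changes 4 were positive and 4 negative. Adipoq was at 0.72 (limma adjusted p = 0.0709) with all rFGF4 libraries above PBS, and Cidea was at -0.05 (limma adjusted p = 0.934). Macrophage and neutrophil markers summed to 1003 to 4038 FPKM in PBS and 985 to 2185 in rFGF4, and of 8 tested 1 rose, Mrc1, against 8.46%. In that list 5 log2 fold changes were positive and 3 negative. The 3 were those of S100a8 (-2.28, limma adjusted p = 0.0567), S100a9 (-1.74, limma adjusted p = 0.163) and Cxcr2 (-0.13, limma adjusted p = 0.876), which did not pass. All rFGF4 libraries of S100a8 lay below its PBS libraries. In the authors' deposited table the adjusted p is 0.00356 for S100a8, 0.0753 for S100a9 and 0.575 for Cxcr2. No listed marker of these types could be at 0 in all libraries, because only rows that exceeded 1 FPKM somewhere are listed. The part of cell composition in the clock genes' values was not tested.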

How the data were processed

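Poly(A) RNA was made into strand-marked paired-end libraries, per the labels' protocols. The submitters' processing notes list edgeR, StringTie, HISAT2 and fastp beside GRCh38, a human build; versions, roles and the mouse reference are not given in the sources used here. The header names no unit; FPKM, as made by the authors, is inferred from the size of the deposited values and from StringTie in the notes. The deposited table also holds the authors' p-value and adjusted p-value, ratio (fold) and log2 fold per gene. FPKM are not counts. At the best of many scanned steps, 11.8% to 12.9% of low values in a library came within 0.05 of whole multiples. A single step meets 10% by chance and the best of a scan meets more. The scan used GENCODE M21 lengths, and the authors' lengths are unknown, so it cannot decide whether whole reads could be recovered. Only rows that exceeded 1 FPKM somewhere are listed, and 0 value columns lacked a sample. Symbols listed more than once were kept as separate rows.

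Rows reaching 1 FPKM in 3 or more libraries entered limma-trend on log2(FPKM + 0.1) (robust, two-sided, group as the only term), Benjamini-Hochberg adjusted over all rows, threshold 0.05. The smallest exact permutation p of 3 against 3 libraries is 0.1, so none was used. Lengths and positions came from GENCODE M21 (longest principal transcript), and the length trend was removed by loess (span 0.3). Promoters came from RefSeq. The members and lists were chosen with earlier results of these data known. Named genes are the 10 members, 8 set core clock genes, each called gene of every list and the 4 smallest p of each pathway list, and the 5 most alike; 1 gene that this rule names is not reported here. Csnk1d, Csnk1e, Usp2, Fkbp5, Tsc22d3, Sgk1, Zbtb16, S100a8, S100a9, Cxcr2, Tnnc2, Mylpf, Adipoq and Cidea were named after their values were seen. The limma script was tested on simulated data. Software was limma 3.58.1 under R 4.3.3 (with statmod 1.5.0) and Python 3.11.15. The labels name no batch. Replicate numbers are shared by the groups, without a label that pairs them.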

Additional observations from a re-analysis of the deposited data

How the results depend on the processing

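No member passed limma in any of the 15 alternatives. All rows called were 1773 as reported, and 755 with median-centred libraries, 749 with quantile normalization, 306 with the length trend removed, 233 with the replicate number as a block, and 156 to 890 with 1 library left out. Log2 fold changes below 0 were those of Per1 (-0.11), Cry2 (-0.12), Dbp (-0.11) and Tef (-0.16) with median-centred libraries, and of Per1 (-0.022), Cry2 (-0.14), Dbp (-0.10) and Tef (-0.094) with quantile normalization. With the length trend removed they were those of Per1 (-0.28), Per2 (-0.088), Per3 (-0.089), Cry2 (-0.26), Dbp (-0.052), Tef (-0.32) and Nr1d1 (-0.059). Leaving out 1 library gave -0.43 to 0.39 for Per1, -0.066 to 0.19 for Cry2, -0.12 to 0.24 for Dbp, -0.22 to 0.20 for Tef and -0.13 to 0.53 for Nr1d1. The cause was not tested. Cry1, Clock and Nr1d2 were positive in each setting that kept them; a minimum of 5 FPKM gave no value for Per2, Per3, Cry2 and Clock. Of 146 member values, 122 kept their sign. The daytime minus night-end difference was -0.64 to -0.34 with 1 library left out, -0.30 with a pseudocount of 1 and -0.26 with Clock and Cry1 alone. It was -0.46 with the length trend removed and -0.50 with quantile normalization. Deviations of same-numbered libraries had correlations of 0.183, -0.067 and -0.125, within the -0.334 to 0.351 of differently numbered ones. These values cannot decide whether replicates were paired, because deviations from a mean of 3 libraries depend on each other. Under the replicate block Npas2 had a limma adjusted p of 0.0785, and no member was called. Values for Arntl and Npas2 and the narrower night-end sets were added after seeing the data.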
